A study of Mus musculus with 12 samples.

Results

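Hypoxia response genes were followed through Hep3B tumors given an FGFR4 inhibitor, a multi-kinase inhibitor, both or neither. The set holds 36 genes that respond to the hypoxia-inducible factors (HIFs), chosen from a list of gene symbols that leaves out the VEGF ligands and the core glycolytic enzymes. All 36 were among the 36292 gene symbols in the table, and all 36 passed the filter on low counts, which kept 15836 genes. Hep3B is a human hepatocellular carcinoma cell line, grown here under the skin of female BALB/c nu/nu mice of about 8 weeks. Nude mice lack mature T cells and keep innate immune cells, vessels and stroma of their own. When tumors averaged about 500 mm3, mice were randomized, 3 to a group, to receive vehicle, 300 mg/kg of H3B-6527, 10 mg/kg of lenvatinib, or both agents at those doses. H3B-6527 is a covalent inhibitor of FGFR4, the receptor for the bile acid hormone FGF19, and lenvatinib inhibits VEGF receptors, FGF receptors and several other receptor kinases. Dosing was daily and by mouth, and tumors were collected 8 hours after dose 4. All groups therefore share one cell line, one host strain and one time point, and the results describe a single tumor model.

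HIFs are transcription factors whose alpha subunits are hydroxylated by oxygen-dependent prolyl hydroxylases, bound by the VHL ubiquitin ligase and degraded when oxygen is plentiful. When oxygen falls the alpha subunits persist, pair with ARNT and switch on genes for pH control, mitochondrial turnover, collagen processing, glucose and lipid handling, and feedback on HIF itself. In liver tumors these genes mark poorly perfused regions, and many of them also answer to growth factor, insulin, nutrient and stress signals. Oxygen levels were not analysed here.

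Total estimated counts per library ran from 23.8 M to 40.9 M. Levels are given below as CPM, the usual depth-normalised read count, on library totals scaled by the trimmed mean of M-values (TMM). The summed level of 10 genes downstream of FGF receptor and MAP kinase signaling was 450 to 471 CPM in the vehicle tumors, 38.7 to 73.1 with H3B-6527, 306 to 512 with lenvatinib and 67.1 to 133 with the combination. Hepatocyte products, led by albumin, summed to between 81600 and 170000 CPM in the 12 tumors. The sum was higher in both groups given H3B-6527 (123000 to 170000) than in the others (81600 to 102000). Not every product differed so. Albumin averaged 35400 CPM in vehicle and 78900 with H3B-6527, whereas APOB averaged 25600 and 26200. Of 10 endothelial markers, 9 were in the table, and all 9 were under 1 CPM in every tumor. Tumor pieces are mixtures, so fewer cells of a type and less RNA per cell cannot be told apart. Whether mouse reads were set aside before counting is not given in the sources used here.

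A pair of tumors stood above their own groups in most of these genes. Vehicle tumor 2 had the highest level of its group for 23 of the 36 genes, whereas it was highest for 34.8% of all genes tested. Lenvatinib tumor 3 was highest for 27 of the 36, against 34.1% of all genes. The median difference in log2(CPM + 1) from the other 2 tumors of the group was 0.23 for vehicle tumor 2 and 0.37 for lenvatinib tumor 3, and it lay between -0.21 and 0.06 in the remaining 10 tumors. Carbonic anhydrase CA9 was 5.99 times the mean of the other 2 vehicle tumors in vehicle tumor 2, NDRG1 was 3.59 times and the prolyl hydroxylase EGLN3 was 3.06 times. In lenvatinib tumor 3, CA9 was 2.18 times and PFKFB3 2.04 times the mean of the other 2. The vehicle means of CA9, NDRG1 and EGLN3 thus include 1 high tumor, and the lenvatinib means of CA9 and PFKFB3 another. PFKFB3 in vehicle tumor 2 was only 1.09 times the mean of the other 2. H3B-6527 tumor 3 departed both ways, which a median hides. In it 6 of the 36 were at least 1.5 times the mean of the other 2, and 7 were lower by at least 1.5 times. The same counts were 10 and 1 in vehicle tumor 2 and 12 and 1 in lenvatinib tumor 3. CA9 in H3B-6527 tumor 3 was 4.72 times that mean and P4HA2 0.332 times, in the smallest library (23.8 M).

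**Figure D1:**
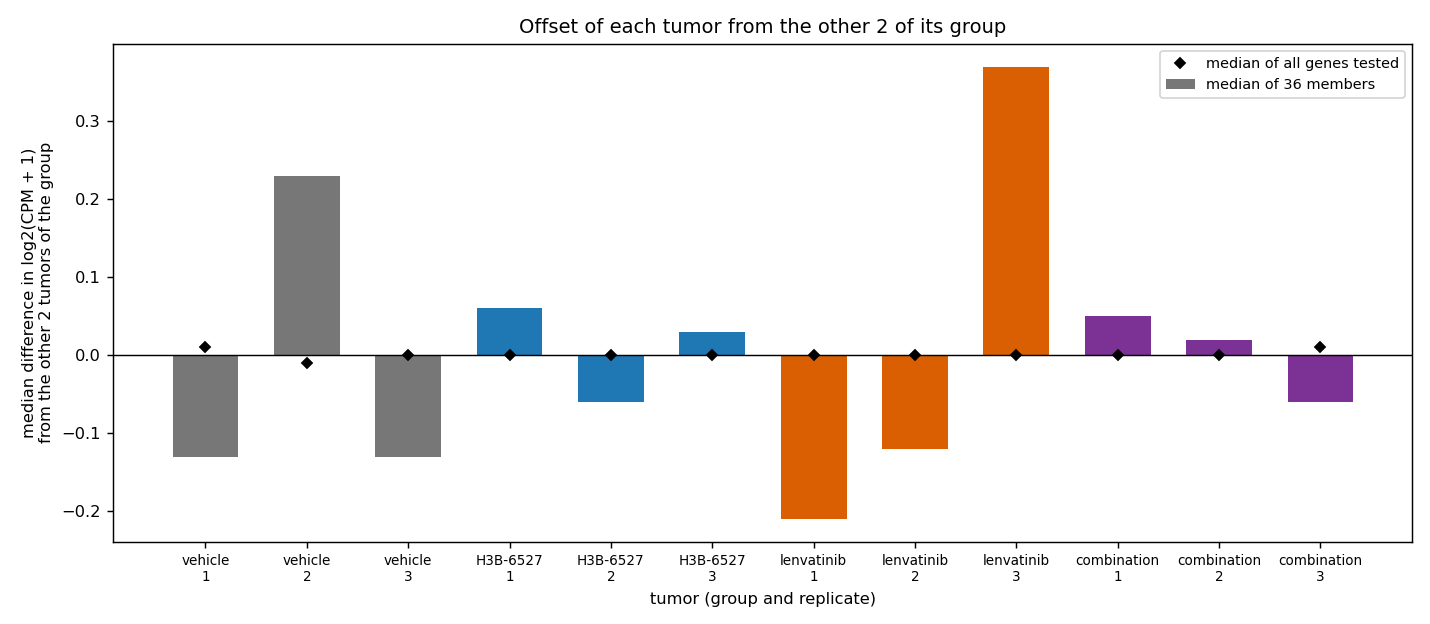
Each bar is the median over the 36 genes of the difference in log2(CPM + 1) between 1 tumor and the mean of the other 2 of its group, on a linear axis, and each diamond is the same median over all genes tested. Vehicle tumor 2 (0.23) and lenvatinib tumor 3 (0.37) stand above the others, while the diamonds stay between -0.01 and 0.01.

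Lenvatinib alone was compared with vehicle to ask how these genes stood under an agent that inhibits VEGF and FGF receptors. Receptor activity was not measured. The summed FGF receptor and MAP kinase output overlapped between the groups, at 306 to 512 CPM with lenvatinib and 450 to 471 in vehicle. That sum was led by EGR1 and hides differences between its genes. SPRY2, SPRY4 and ETV4 were lower in every lenvatinib tumor than in every vehicle tumor, and the other genes of the list overlapped. SPRY4 was at 4.97, 5.02 and 5.04 CPM in vehicle tumors 1 to 3 and 1.18, 3.95 and 3.54 with lenvatinib. With 3 tumors a group, no gene in the table passed an adjusted p of 0.05 by edgeR's quasi-likelihood test (background 0% called), and so none of the 36 did. At an unadjusted p under 0.05, 20 of the 36 were past the threshold, beside 10.7% of all genes. The fold changes leaned one way. 35 of the 36 were positive, the median log2 fold change was 0.49 against 0.01 for all genes, and LOX was the only negative value, although VLDLR and TMEM45A were 0.00 to 2 decimals. That median was 0.59 without vehicle tumor 2 and 0.39 without lenvatinib tumor 3. Counts of signs, here and below, are description and not a test. The 36 genes share the same tumors, can move together, and were chosen with earlier results of these data known. In 15 of the 36 all 3 lenvatinib tumors lay above all 3 vehicle tumors, beside 11.8% of all genes, and in none did all 3 lie below, beside 10.9%. DESeq2 on the same counts called 5 of the 36 higher, beside 0.808% of all genes.

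The second test of lenvatinib used the other 6 tumors, comparing the combination with H3B-6527 alone, so that no library was shared with the first. Here edgeR called 2 genes in the whole table (0.0126%), none of them among the 36. At an unadjusted p under 0.05, 15 of the 36 were past the threshold, beside 9.42% of all genes. DESeq2 called 3 higher, beside 0.511% of all genes. The fold change was positive for 28 of the 36, with a median of 0.27 against -0.01 for all genes. All 3 combination tumors lay above all 3 H3B-6527 tumors for 15 of the 36, beside 5.95% of all genes, and below for none, beside 7.15%. Set side by side, 27 of the 36 (75.0%) were positive in both comparisons and none was negative in both, while among all genes 29.2% were positive in both and 30.2% negative in both. The tumors did not overlap, with lenvatinib higher, in both comparisons for 8 of the 36 (22.2%) and for 1.55% of all genes. Those 8 were CA9, BNIP3, PLOD1, PFKFB3, PFKFB4, MXI1, DDIT4 and ANKRD37. Some gaps between lenvatinib and vehicle were narrow. PLOD1 was at 176 CPM to 3 digits in both lenvatinib tumor 1 and vehicle tumor 1. The nearest lenvatinib and vehicle values were 9.94 and 9.89 for CA9 and 4.44 and 4.31 for PFKFB3.

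The mean lenvatinib effect is the average of the log2 fold changes without and with H3B-6527. Its largest value among the 36, 2.37 ± 0.55 (SE), was that of CA9, a membrane carbonic anhydrase of pH control and a widely used tissue marker of hypoxia. CA9 was at 2.07, 9.89 and 1.23 CPM in vehicle tumors 1 to 3, 0.386, 0.271 and 1.55 with H3B-6527, 9.94, 11.8 and 23.7 with lenvatinib and 6.29, 4.42 and 4.6 with the combination. All 3 lenvatinib tumors were above every vehicle tumor, the nearest pair being lenvatinib tumor 1 and vehicle tumor 2, and all 3 combination tumors were above every H3B-6527 tumor. The log2 fold change was 1.78 ± 0.68 (SE) with lenvatinib alone and 2.95 ± 0.86 (SE) when it was added to H3B-6527, with adjusted p of 0.366 and 0.369. Without vehicle tumor 2 the first of these was 3.20 (adjusted p = 0.0626). ANKRD37 was at 0.335, 1.1 and 0.604 CPM in vehicle tumors 1 to 3, 0.437, 0.19 and 0.251 with H3B-6527, 1.4, 2.02 and 3.1 with lenvatinib and 1.11, 1.04 and 1.14 with the combination. ANKRD37, an ankyrin repeat protein whose gene is a direct HIF target, thus showed the same order of groups. Its log2 fold change was 1.67 ± 0.40 (SE) alone and 1.87 ± 0.46 (SE) on H3B-6527, and its estimated counts were only 6 to 121 a library.

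Feedback and stress genes followed. EGLN3, a HIF prolyl hydroxylase that is itself induced by HIF, overlapped between lenvatinib and vehicle but not between the combination and H3B-6527. EGLN3 was at 2.15, 5.43 and 1.39 CPM in vehicle tumors 1 to 3, 0.977, 1.11 and 1.17 with H3B-6527, 4.03, 4.33 and 7.23 with lenvatinib and 3.42, 2.18 and 2.77 with the combination. The log2 fold changes were 0.80 ± 0.40 (SE) and 1.37 ± 0.46 (SE). The first was 1.55 without vehicle tumor 2, 0.45 without vehicle tumor 3 and 0.48 without lenvatinib tumor 3, and was called in none of these. DDIT4 encodes an inhibitor of the mTORC1 growth pathway. DDIT4 was at 4.16, 7.62 and 5.96 CPM in vehicle tumors 1 to 3, 3.47, 3.5 and 5.24 with H3B-6527, 9.04, 10.2 and 17.6 with lenvatinib and 9.71, 6.18 and 6.37 with the combination. Lenvatinib tumors were all above vehicle and combination tumors all above H3B-6527, at log2 fold changes of 1.05 ± 0.29 (SE) and 0.88 ± 0.31 (SE). MXI1, a MYC antagonist, had log2 fold changes of 0.57 ± 0.19 (SE) and 0.87 ± 0.21 (SE). MXI1 was at 1.84, 2.88 and 2.13 CPM in vehicle tumors 1 to 3, 1.29, 1.54 and 1.47 with H3B-6527, 2.99, 3.08 and 4.08 with lenvatinib and 2.59, 2.69 and 2.57 with the combination. The combination tumors were within a narrow range, and all stood above the H3B-6527 tumors. BHLHE40, a transcriptional repressor, had log2 fold changes of 0.72 ± 0.22 (SE) and 0.80 ± 0.23 (SE). BHLHE40 was at 23.5, 32.6 and 24.2 CPM in vehicle tumors 1 to 3, 15.8, 11.9 and 15.9 with H3B-6527, 30.4, 40.3 and 61.8 with lenvatinib and 26.6, 24.1 and 25.3 with the combination. Only the second of these comparisons was free of overlap, and the first BHLHE40 value was 0.40 without lenvatinib tumor 3.

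Of the 9 genes of glucose and energy handling, all 9 had positive log2 fold changes with lenvatinib alone and 4 had them on H3B-6527, and all 3 mitochondrial genes had them in both comparisons. PFKFB4 and PFKFB3 make and degrade the sugar phosphate that activates phosphofructokinase. PFKFB4 was at 4.08, 7.52 and 3.13 CPM in vehicle tumors 1 to 3, 4.71, 5.23 and 6.37 with H3B-6527, 9.86, 10.9 and 17 with lenvatinib and 8.7, 8.32 and 8.71 with the combination. The log2 fold change of PFKFB4 was 1.36 ± 0.28 (SE) alone and 0.67 ± 0.29 (SE) on H3B-6527, with no overlap in either. PFKFB3 was at 3.27, 4.13 and 4.31 CPM in vehicle tumors 1 to 3, 1.03, 1.06 and 1.26 with H3B-6527, 4.44, 5.74 and 10.4 with lenvatinib and 3.07, 1.76 and 1.6 with the combination. PFKFB3 had log2 fold changes of 0.81 ± 0.30 (SE) and 0.95 ± 0.35 (SE), also without overlap, and lenvatinib tumor 3 was well above the other 2. Without that tumor the first value was 0.38, and the second was 0.60 without combination tumor 1. PDK1, which shuts pyruvate out of the mitochondrial citric acid cycle, had log2 fold changes of 0.84 ± 0.29 (SE) and 0.89 ± 0.30 (SE). PDK1 was at 8.82, 16.4 and 8.96 CPM in vehicle tumors 1 to 3, 5.76, 7.21 and 7.41 with H3B-6527, 14.5, 17.4 and 29.4 with lenvatinib and 15.7, 10.6 and 11.3 with the combination. Vehicle tumor 2 reached into the lenvatinib range, and the first PDK1 value was 0.48 without lenvatinib tumor 3. BNIP3 is a receptor that marks mitochondria for autophagy. BNIP3 was at 23.7, 31.1 and 21.5 CPM in vehicle tumors 1 to 3, 41.9, 41.3 and 37.9 with H3B-6527, 39, 35.3 and 42.2 with lenvatinib and 53.9, 55.7 and 48.8 with the combination. Its log2 fold change was 0.61 ± 0.12 (SE) alone and 0.39 ± 0.12 (SE) on H3B-6527, with no overlap in either comparison. Its relative BNIP3L had log2 fold changes of 0.50 ± 0.21 (SE) and 0.56 ± 0.21 (SE), the first being 0.81 without vehicle tumor 2 and 0.27 without lenvatinib tumor 3.

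Some genes had a positive log2 fold change with lenvatinib alone and one near 0 or below when it was added to H3B-6527. These included PPP1R3C (0.71 and -0.22), AK4 (0.34 and -0.04), PDK3 (0.59 and -0.01) and CA12 (0.35 and -0.01). The log2 fold changes of LOX had opposite signs, -0.67 ± 0.32 (SE) and 0.66 ± 0.50 (SE). The difference between both backgrounds was tested as non-additivity, and no gene in the table passed (0%). At an unadjusted p under 0.05, 5 of the 36 were past the threshold, beside 5.39% of all genes: NDRG1, PPP1R3C, LOX, AK4 and PDK3. DESeq2 called none of the 36. The smallest adjusted p among the 36 was 0.798, for PPP1R3C, at -0.93 ± 0.32 (SE).

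**Figure D2:**
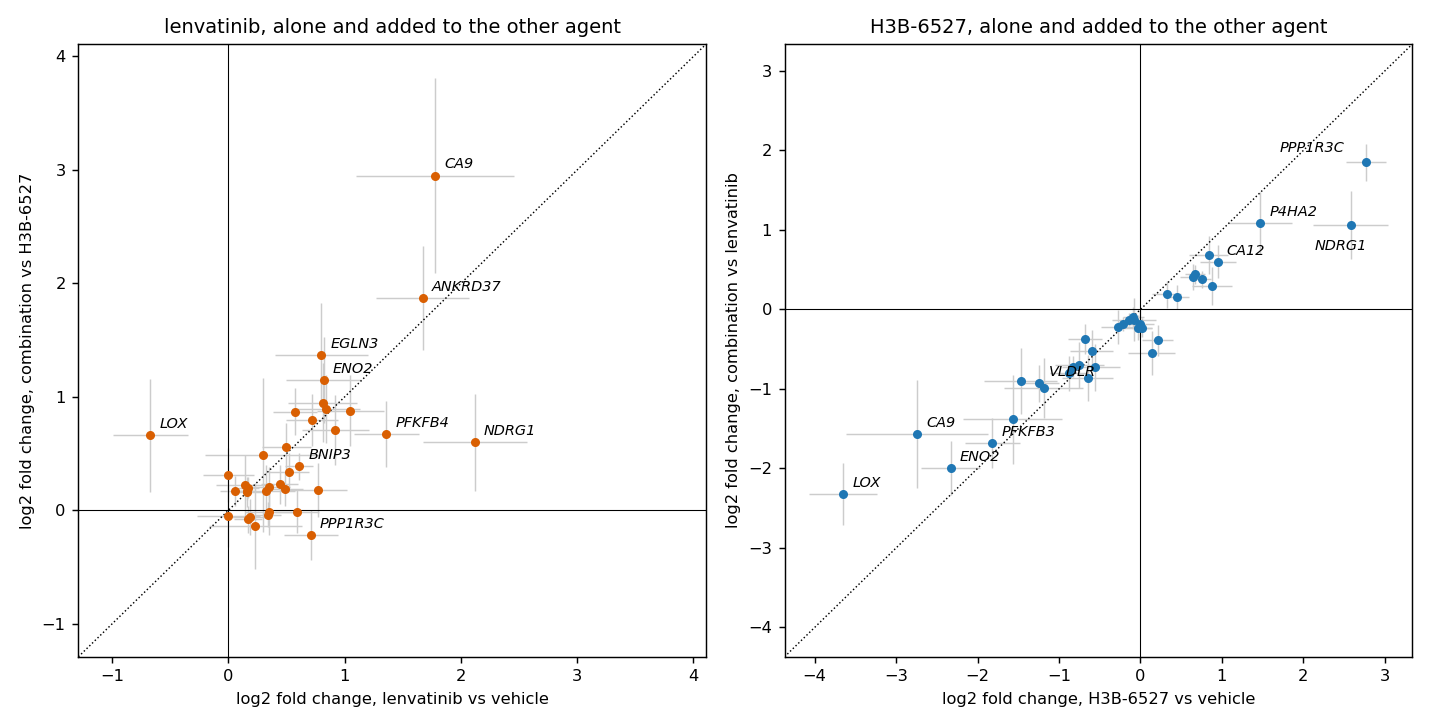
Each point is 1 of the 36 genes with its log2 fold change for an agent alone (horizontal axis) and added to the other agent (vertical axis), with bars of 1 SE and a dotted line of equal change. The 2 axes of a panel share no library. In the lenvatinib panel 27 points are positive on both axes and none negative on both, and in the H3B-6527 panel 11 are positive and 21 negative on both.

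The mean lenvatinib effect over both backgrounds used all 12 tumors. edgeR called 14 genes in the table higher (0.0884%), none of them among the 36, and no gene lower. The log2 value was positive for 34 of the 36, with a median of 0.34 against 0.00 for all genes, and 22 were at an unadjusted p under 0.05, beside 14.5% of all genes. The lowest adjusted p was 0.0519, for both BNIP3, at a log2 value of 0.50 ± 0.09 (SE), and ANKRD37, at 1.77 ± 0.30 (SE), followed by MXI1 and PFKFB4 with adjusted p of 0.0596 and 0.0705. DESeq2 called 16 of the 36 higher, beside 1.95% of all genes, and limma-voom called 1, BNIP3, beside 0.164%. Without vehicle tumor 2, edgeR called 9 (0.417% of all genes): ANKRD37, BNIP3, BNIP3L, CA9, EGLN3, MXI1, NDRG1, PDK1 and PFKFB4. It called 5 without H3B-6527 tumor 1 (1.45% of all genes), 2 without H3B-6527 tumor 2 (0.609%), 2 without lenvatinib tumor 1 (0.087%) and 0 without any 1 of the other 8 tumors. Without vehicle tumor 2 and lenvatinib tumor 3 it also called 9 (0.263%). In lenvatinib against vehicle, edgeR called BNIP3, NDRG1 and PFKFB4 without vehicle tumor 2 (0.0810% of all genes), and NDRG1 and PFKFB4 without both tumors (0.0438%). The leave-out of both tumors was chosen after seeing the data.

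H3B-6527 against vehicle asked how the same genes stood with the FGFR4 inhibitor, and here they split. 10 of the 36 rose (27.8%) and 10 fell (27.8%), beside 25.2% of all genes that rose and 24.3% that fell. Those shares are near the background, and the median log2 fold change was -0.12 against 0.01 for all genes. With library totals in place of TMM the all-gene median moved to -0.11, and 19.1% of all genes rose and 31.3% fell, with 9 of the 36 that rose and 15 that fell. The 10 that rose were the glycogen-targeting subunit PPP1R3C, NDRG1, the collagen hydroxylases P4HA2, P4HA1 and PLOD2, the matrix enzyme LOXL2, CA12, AK4, BNIP3 and the glucose transporter SLC2A3. Those that fell were LOX, CA9, ENO2, PFKFB3, STC2, EGLN3, VLDLR, BHLHE40, ERO1A and MXI1. 8 of the 10 that rose passed under every alternative setting, the exceptions being P4HA1 and PLOD2. 6 of the 10 that fell did so, the exceptions being CA9, EGLN3, MXI1 and STC2.

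PPP1R3C brings protein phosphatase to glycogen and so favors glycogen synthesis. PPP1R3C was at 14.1, 15.2 and 11.5 CPM in vehicle tumors 1 to 3, 123, 92.6 and 62.2 with H3B-6527, 27.5, 18.6 and 20.3 with lenvatinib and 93.4, 77 and 68.6 with the combination. Every tumor given H3B-6527, alone or in combination, was above every other tumor. The log2 fold change was 2.77 ± 0.24 (SE) against vehicle (adjusted p = 5.6e-06) and 1.85 ± 0.23 (SE) for the combination against lenvatinib (adjusted p = 0.000153). NDRG1 is a stress-induced protein and one of the most widely reported hypoxia markers. NDRG1 was at 20.8, 66.4 and 16.2 CPM in vehicle tumors 1 to 3, 258, 191 and 167 with H3B-6527, 130, 131 and 189 with lenvatinib and 344, 338 and 258 with the combination. All tumors of the 3 treated groups were above all vehicle tumors. NDRG1 rose with H3B-6527 by 2.58 ± 0.46 (SE) (adjusted p = 0.000875), and its value with lenvatinib alone was 2.12 ± 0.45 (SE) (adjusted p = 0.139).

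Collagen-processing genes divided by enzyme. P4HA1 and P4HA2 are the catalytic subunits of collagen prolyl hydroxylases. P4HA2 was at 6.37, 5.99 and 7.54 CPM in vehicle tumors 1 to 3, 31.3, 15.5 and 7.75 with H3B-6527, 6.49, 7.89 and 8.92 with lenvatinib and 21.8, 16.2 and 11.9 with the combination. P4HA1 was at 22.4, 27.3 and 21.3 CPM in vehicle tumors 1 to 3, 62.8, 39 and 28.1 with H3B-6527, 33.9, 39.5 and 47.6 with lenvatinib and 54, 53.1 and 40.8 with the combination. H3B-6527 tumor 1 was the highest of its group for both and tumor 3 the lowest, and P4HA2 in tumor 3 was close to the vehicle range. P4HA2 rose by 1.47 ± 0.39 (SE) (adjusted p = 0.00913) and P4HA1 by 0.88 ± 0.25 (SE) (adjusted p = 0.0114). Without H3B-6527 tumor 1 these log2 fold changes were 0.83 and 0.51, with adjusted p of 0.0459 and 0.0421, and without the filter on low counts P4HA1 was at an adjusted p of 0.0522. PLOD2, a lysyl hydroxylase that prepares collagen for cross-linking, rose by 0.45 ± 0.15 (SE) (adjusted p = 0.0229). PLOD2 was at 133, 187 and 143 CPM in vehicle tumors 1 to 3, 221, 199 and 215 with H3B-6527, 196, 181 and 270 with lenvatinib and 235, 258 and 232 with the combination. Its call was lost on library totals (0.33, adjusted p = 0.10) and without vehicle tumor 1 (0.36, 0.10), vehicle tumor 3 (0.40, 0.0857) or H3B-6527 tumor 1 (0.42, 0.0635).

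LOX and LOXL2 encode related enzymes that cross-link collagen and elastin, and they went opposite ways. LOX was at 1.98, 3.85 and 2.47 CPM in vehicle tumors 1 to 3, 0.103, 0.19 and 0.419 with H3B-6527, 1.48, 1.57 and 2.15 with lenvatinib and 0.285, 0.276 and 0.457 with the combination. LOXL2 was at 0.838, 0.994 and 1.02 CPM in vehicle tumors 1 to 3, 1.9, 2.03 and 1.13 with H3B-6527, 1.01, 1.41 and 1.15 with lenvatinib and 1.8, 2 and 1.96 with the combination. Tumors given H3B-6527 were all lower for LOX, and all tumors of the H3B-6527 group were higher than vehicle for LOXL2. LOX fell by 3.65 on the log2 scale (SE 0.42, adjusted p = 1.89e-05), on estimated counts of 4, 7 and 10 in the H3B-6527 libraries. LOXL2 rose by 0.84 ± 0.24 (SE) (adjusted p = 0.0111). The summed level of 10 fibroblast and pericyte markers was lower in the same groups as LOX, at 116 to 124 CPM in vehicle, 49.3 to 62.0 with H3B-6527, 103 to 120 with lenvatinib and 59.1 to 60.1 with the combination. Most of that sum was PDGFRA, which averaged 68 CPM in vehicle and 22.8 with H3B-6527, and PDGFRB, at 43.8 and 27.2. RGS5 went the other way, at 0.327 and 0.468, and DCN averaged 0 and 0.0636. 5 of the 10 genes were under 1 CPM in every tumor, so the sum says little of the list as a whole. Its part in the LOX result was not tested. ERO1A, the oxidase that drives disulfide formation in the endoplasmic reticulum, fell by 0.83 (SE 0.13, adjusted p = 0.000218). ERO1A was at 56.3, 63.4 and 54.9 CPM in vehicle tumors 1 to 3, 26.6, 32.9 and 38.7 with H3B-6527, 56.7, 57.2 and 67.8 with lenvatinib and 32.5, 37.5 and 40.2 with the combination. The 6 tumors given H3B-6527 were all below the other 6.

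Genes of glucose and energy handling also went both ways. ENO2, an enolase isoform typical of neurons, fell by 2.33 on the log2 scale (SE 0.36, adjusted p = 0.000292). ENO2 was at 7.43, 11.3 and 6.51 CPM in vehicle tumors 1 to 3, 1.05, 1.44 and 2.72 with H3B-6527, 9.84, 15.3 and 19.4 with lenvatinib and 4.52, 2.8 and 3.76 with the combination. Every tumor given H3B-6527 was below every other tumor. PFKFB3, whose values are given above, fell by 1.82 (SE 0.34, adjusted p = 0.000729), while the log2 fold change of PFKFB4 was 0.14 ± 0.29 (SE) (adjusted p = 0.728). AK4, a mitochondrial adenylate kinase, rose by 0.76 ± 0.11 (SE) (adjusted p = 0.000127). AK4 was at 27.8, 25.5 and 23.4 CPM in vehicle tumors 1 to 3, 49.3, 41.2 and 39.4 with H3B-6527, 33.3, 34.9 and 29 with lenvatinib and 39.1, 46.4 and 40.9 with the combination. Every H3B-6527 tumor was above every vehicle tumor. SLC2A3, the glucose transporter GLUT3, rose by 0.65 ± 0.16 (SE) (adjusted p = 0.00479). SLC2A3 was at 2.21, 2.19 and 2.31 CPM in vehicle tumors 1 to 3, 3.68, 2.98 and 3.9 with H3B-6527, 2.63, 2.41 and 2.59 with lenvatinib and 3.51, 3.73 and 2.9 with the combination. Its near-identical copy SLC2A14 stood at 1.13 to 2.15 CPM in vehicle and 4.44 to 8.46 with H3B-6527, so how reads were split between the pair leaves both values uncertain.

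The carbonic anhydrases also parted. CA12 rose by 0.95 ± 0.22 (SE) (adjusted p = 0.00334), and CA9 fell by 2.74 (SE 0.87, adjusted p = 0.0221). CA12 was at 30.5, 18.6 and 21.4 CPM in vehicle tumors 1 to 3, 40.8, 49.7 and 45.7 with H3B-6527, 36.5, 31.4 and 21.7 with lenvatinib and 36.8, 53 and 45.7 with the combination. H3B-6527 tumors were all above vehicle for CA12, whereas for CA9 the ranges overlapped through H3B-6527 tumor 3. Without vehicle tumor 2, the log2 fold change of CA9 was at -1.32 (adjusted p = 0.113), EGLN3 at -0.71 (0.0915) and MXI1 at -0.48 (0.0796), and none of them was called. CA9 also lost its call without H3B-6527 tumor 1 (0.126) or 2 (0.0753), EGLN3 without H3B-6527 tumor 1 (0.068) and MXI1 without the same tumor (0.0541). Other settings that ended these calls were no low-count filter (CA9 0.0759, EGLN3 0.0535), limma-voom (CA9 0.0553, EGLN3 0.0582) and only the groups compared (MXI1 0.0522). With all tumors EGLN3 fell by 1.47 (adjusted p = 0.0177) and MXI1 by 0.68 (adjusted p = 0.0156).

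Of the remaining genes that fell, VLDLR is a lipoprotein receptor. VLDLR was at 3.55, 4.56 and 4.86 CPM in vehicle tumors 1 to 3, 1.85, 1.92 and 1.68 with H3B-6527, 3.7, 3.4 and 5.85 with lenvatinib and 2.53, 2.59 and 1.73 with the combination. All tumors given H3B-6527 were below all others, and VLDLR fell by 1.24 (SE 0.24, adjusted p = 0.000839). BHLHE40 fell by 0.88 (SE 0.23, adjusted p = 0.00709). BNIP3 rose by 0.67 ± 0.12 (SE) (adjusted p = 0.000731). STC2, a secreted glycoprotein, rested on estimated counts of 2 to 8 in the H3B-6527 libraries. STC2 was at 0.391, 0.255 and 0.683 CPM in vehicle tumors 1 to 3, 0.103, 0.0542 and 0.335 with H3B-6527, 0.411, 0.385 and 0.821 with lenvatinib and 0.158, 0.173 and 0.279 with the combination. It was just past the threshold at a log2 fold change of -1.57 ± 0.61 (SE) (adjusted p = 0.0472), with overlap between the groups, and its call was lost without vehicle tumor 1 (0.0749) or 3 (0.205), or without H3B-6527 tumor 1 (0.137) or 2 (0.172), by DESeq2 (0.0511) and with only the groups compared (0.0896). Without H3B-6527 tumor 3 it was -2.43. The summed level of 8 muscle and fat markers, led by the lipid droplet protein gene PLIN1, was 5.54 to 6.26 CPM in vehicle, 29.8 to 72.4 with H3B-6527, 6.80 to 8.57 with lenvatinib and 34.4 to 52.8 with the combination. Of the 8, 6 were under 1 CPM in every tumor. PLIN1 averaged 3.45 CPM in vehicle and 46.8 with H3B-6527, whereas the muscle gene CKM averaged 1.59 and 0.729. The list's part in these results was not tested.

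**Figure D3:**
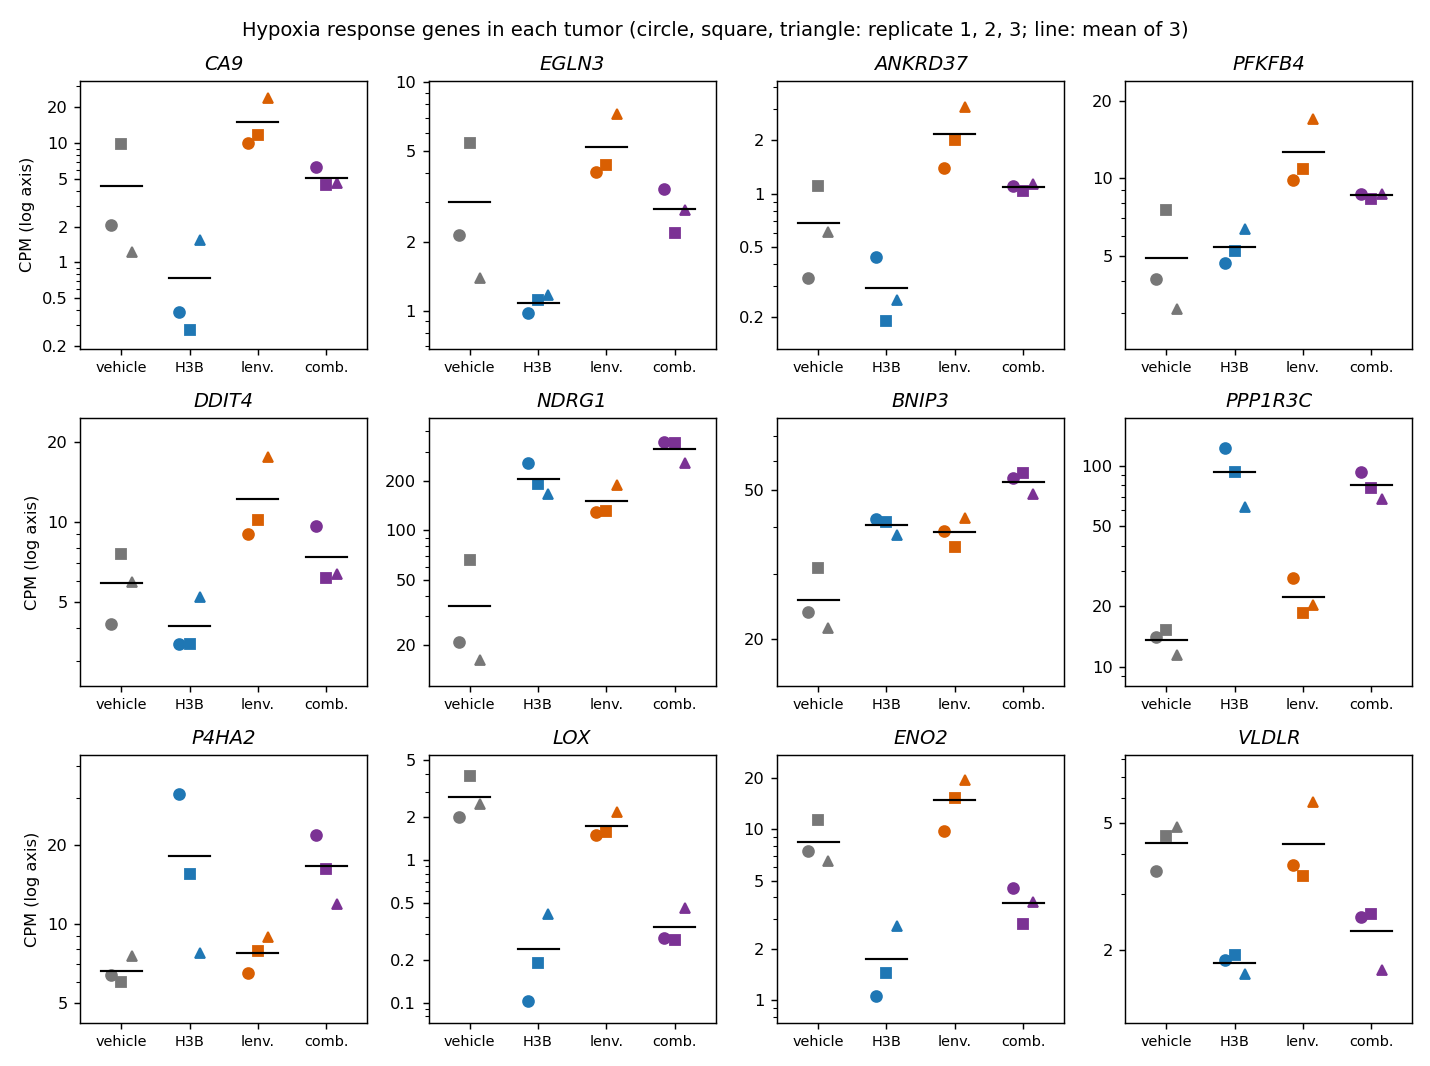
Each panel shows CPM on a log axis for 1 gene in each of the 12 tumors, with circle, square and triangle for replicates 1, 2 and 3 and a line at the group mean. CA9, ANKRD37 and PFKFB4 are higher in the lenvatinib tumors than in every vehicle tumor, PPP1R3C is high and LOX, ENO2 and VLDLR are low in both groups given H3B-6527, and vehicle tumor 2 lies above its group for CA9, EGLN3 and NDRG1.

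The combination against lenvatinib gave H3B-6527 a second test in libraries not used in the first. 6 of the 36 rose (16.7%) and 7 fell (19.4%), beside 19.1% and 20.9% of all genes, with a median of -0.23 against 0.00. On library totals, 14.5% of all genes rose and 27.5% fell, at an all-gene median of -0.11, and 3 of the 36 rose and 12 fell. CA12, BNIP3, P4HA2, LOXL2, AK4 and PPP1R3C rose, and LOX, ERO1A, ADM, PFKFB3, ENO2, VLDLR and BHLHE40 fell. The same 6 genes that rose here had risen against vehicle, and 6 of the 7 that fell had fallen there, ADM being the exception. As a share of all genes, 17.1% rose in both comparisons and 18.2% fell in both, close to the 16.7% of the 36 in each direction. In log2 fold change LOX was at -2.32 ± 0.39 (SE), ENO2 at -2.0 ± 0.34 (SE) and PFKFB3 at -1.68 ± 0.31 (SE), with adjusted p of 0.000683, 0.000821 and 0.00126. ADM, a vasodilator peptide, had a log2 fold change of -0.86 ± 0.29 (SE) (adjusted p = 0.0302). ADM was at 1.9, 2.14 and 1.71 CPM in vehicle tumors 1 to 3, 1.49, 1.27 and 0.838 with H3B-6527, 2.05, 4.2 and 4.67 with lenvatinib and 2.4, 1.66 and 1.93 with the combination. The ranges overlapped through lenvatinib tumor 1.

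Of the 6 that rose, PPP1R3C alone kept its call under every alternative. BNIP3 lost it without lenvatinib tumor 2 (adjusted p = 0.0575) or combination tumor 2 (0.0502), and AK4 without lenvatinib tumor 3 (0.073) or combination tumor 2 (0.079). P4HA2, LOXL2 and CA12 lost theirs in 8, 7 and 6 settings. P4HA2 did so without any 1 lenvatinib tumor or without combination tumor 1 or 2 (0.0705 to 0.152). LOXL2 did so without lenvatinib tumor 1 or 3 or any 1 combination tumor (0.0591 to 0.11), and CA12 without lenvatinib tumor 2 or 3 or combination tumor 2 or 3 (0.0772 to 0.152). Among the 7 that fell only ADM lost its call, without lenvatinib tumor 2 or 3 or combination tumor 2 or 3 (0.075 to 0.135) and by limma-voom (0.0546). The log2 fold change of BHLHE40 went from -0.80 to -0.48 without lenvatinib tumor 3, with an adjusted p of 0.0499.

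The combination against vehicle shares its vehicle tumors with both single-agent comparisons, so their values are only set side by side. 12 of the 36 rose (33.3%) and 5 fell (13.9%), beside 24.8% and 25.3% of all genes, with a median of 0.20 against 0.01. That median of the 36 was 0.49 without vehicle tumor 2, 0.09 without vehicle tumor 1 and 0.06 on library totals. On library totals, 18.5% of all genes rose and 33.7% fell, at an all-gene median of -0.14, and 10 of the 36 rose and 5 fell. The 10 genes that rose with H3B-6527 alone rose here too, joined by PFKFB4 at a log2 fold change of 0.80 ± 0.29 (SE) (adjusted p = 0.0342) and FAM162A, a mitochondrial protein linked to hypoxic cell death, at 0.54 ± 0.18 (SE) (adjusted p = 0.0227). FAM162A was at 33.6, 29.6 and 29.8 CPM in vehicle tumors 1 to 3, 41.3, 46.9 and 28.1 with H3B-6527, 40.2, 45.2 and 33.3 with lenvatinib and 53.3, 39.8 and 41.8 with the combination. All 3 combination tumors were above the vehicle range for FAM162A. NDRG1 rose by 3.18 ± 0.47 (SE) (adjusted p = 0.000254), PPP1R3C by 2.55 ± 0.24 (SE) and BNIP3 by 1.05 ± 0.12 (SE). LOX, ERO1A, PFKFB3, ENO2 and VLDLR fell, LOX by 2.99 and ENO2 by 1.18 on the log2 scale.

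The other 5 genes that fell with H3B-6527 alone were not called in the combination against vehicle. Their log2 fold changes put CA9 at 0.21 ± 0.69 (SE), EGLN3 at -0.10 ± 0.41 (SE), BHLHE40 at -0.08 ± 0.22 (SE), MXI1 at 0.19 ± 0.20 (SE) and STC2 at -1.08 ± 0.57 (SE). For the first 4 of these the combination tumors lay above every H3B-6527 tumor and within or overlapping the vehicle range. Without vehicle tumor 2, CA9 was called higher in the combination than in vehicle, at 1.63 (adjusted p = 0.031), and so were ANKRD37 at 1.21 (0.0363), BNIP3L at 0.59 (0.0162) and KDM3A at 0.48 (0.0448). The log2 fold change of PFKFB4 was then 1.25 (0.00134), and that of EGLN3 was 0.66 (0.101). FAM162A lost its call without vehicle tumor 2 (0.0685) or 3 (0.0717) or combination tumor 1 (0.105), and P4HA2 without combination tumor 1 (0.0609). PFKFB3 lost it without vehicle tumor 2 (0.0814) or 3 (0.0977) or combination tumor 2 (0.115) or 3 (0.125). PFKFB4 lost it without vehicle tumor 1 (0.114) or 3 (0.123) or any 1 combination tumor (0.0655 to 0.0759). Without the low-count filter FAM162A (0.0528), P4HA2 (0.0709) and PFKFB4 (0.088) were not called, nor were FAM162A (0.0566) and PFKFB4 (0.085) on library totals.

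**Figure D4:**
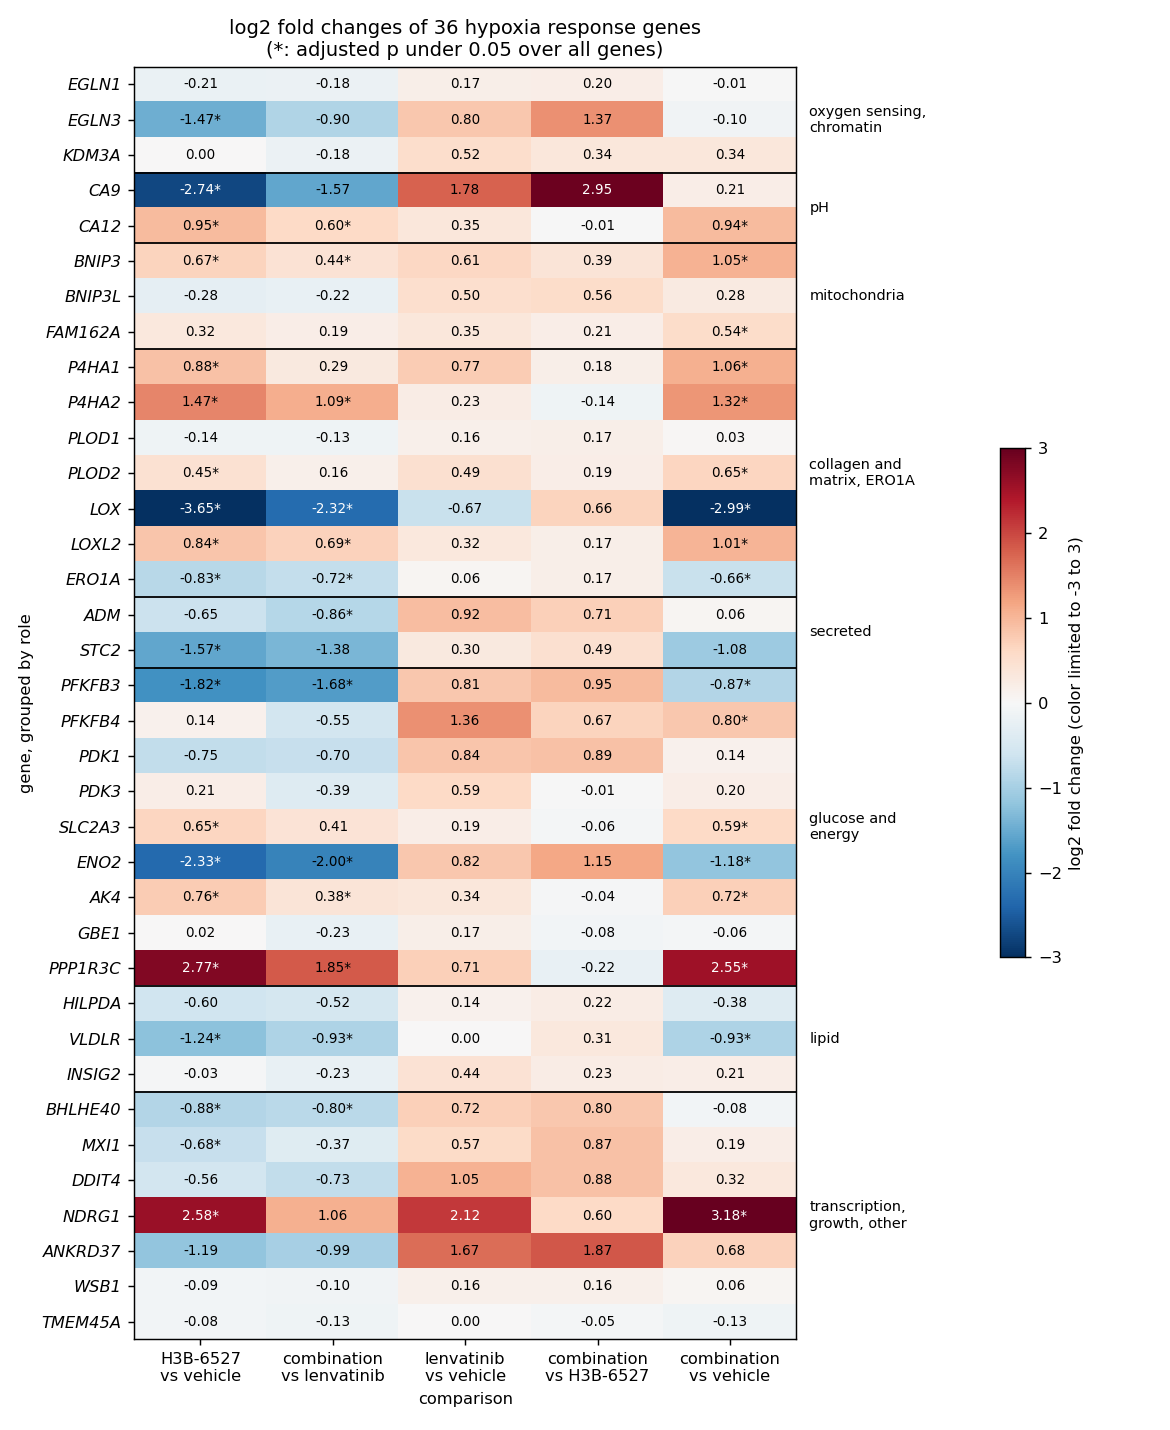
Each cell gives the log2 fold change of 1 of the 36 genes (rows, grouped by role) in 1 comparison (columns), red for higher and blue for lower with color limited to -3 to 3, and a star for an adjusted p under 0.05 over all genes. The 2 lenvatinib columns hold no star and are mostly red, while the 2 H3B-6527 columns hold stars of both colors.

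13 of the 36 were not called in any comparison. EGLN1, the main oxygen-sensing prolyl hydroxylase, stayed between 73.2 and 113 CPM over the 12 tumors, and KDM3A, a histone demethylase, between 64.7 and 133. The lysyl hydroxylase PLOD1 ranged from 145 to 194 CPM, with all lenvatinib tumors at or above the highest vehicle value to 3 digits. GBE1, the glycogen branching enzyme, ranged from 23 to 34, WSB1, a ubiquitin ligase adaptor, from 102 to 157, and the membrane protein TMEM45A from 4.55 to 12. INSIG2, which restrains sterol synthesis, ranged from 6.03 to 11.2, HILPDA, which inhibits lipid droplet breakdown, from 0.921 to 2.85, and PDK3 from 2.32 to 4.23. BNIP3L, PDK1, DDIT4 and ANKRD37 complete the 13.

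The rest of the pathway was read from 3 lists. Of 20 genes of the HIF machinery 18 were tested, and with H3B-6527 5 rose (27.8%) and 2 fell (11.1%), beside 25.2% and 24.3% of all genes. HIF1A, the main alpha subunit, fell by 0.86 on the log2 scale (SE 0.10, adjusted p = 2.59e-05) and its partner ARNT rose by 0.89 ± 0.08 (SE, adjusted p = 3.88e-06). HIF1A was at 137, 121 and 152 CPM in vehicle tumors 1 to 3, 74, 70.4 and 81.8 with H3B-6527, 106, 118 and 117 with lenvatinib and 63.1, 71.6 and 77.1 with the combination. EPAS1, another alpha subunit, had log2 fold changes of -0.03 ± 0.11 (SE) with H3B-6527 and -0.06 ± 0.11 (SE) with lenvatinib, and was called in no comparison. For the mean lenvatinib effect 8 of the 18 values were positive and 10 negative, beside 49.5% of all genes positive. The 1 called, beside 0.0884% of all genes, was CITED2 at 0.74 ± 0.10 (SE, adjusted p = 0.018). CITED2 competes with HIF for its coactivators and is itself a HIF target. CITED2 was at 12.1, 17.7 and 13.1 CPM in vehicle tumors 1 to 3, 32.3, 33.5 and 27.4 with H3B-6527, 29.8, 24.3 and 30 with lenvatinib and 46.9, 45.5 and 41.2 with the combination. That call was lost in 5 of 18 alternatives (adjusted p up to 0.0811).

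Of 18 VEGF and core glycolysis genes 17 were tested, and with H3B-6527 3 rose (17.6%) and 9 fell (52.9%), beside the same 25.2% and 24.3% of all genes, among them HK2 at a log2 fold change of -2.78 ± 0.22 (SE, adjusted p = 3.16e-06) and SLC2A1 at -2.45 ± 0.35 (SE, adjusted p = 0.000157). For the mean lenvatinib effect all 17 values were positive, beside 49.5% of all genes. The 1 called, beside 0.0884% of all genes, was VEGFA at 0.75 ± 0.10 (SE, adjusted p = 0.018). VEGFA was at 87.6, 107 and 84.2 CPM in vehicle tumors 1 to 3, 72.5, 80.3 and 79.2 with H3B-6527, 128, 160 and 182 with lenvatinib and 150, 120 and 117 with the combination. All lenvatinib tumors were above vehicle and all combination tumors above H3B-6527, and the call was lost in 4 of 18 alternatives (adjusted p up to 0.0778). Of 30 further hypoxia targets 24 were tested, with 5 that rose (20.8%) and 8 that fell (33.3%) with H3B-6527, beside 25.2% and 24.3% of all genes. In the combination against vehicle 8 rose (33.3%) and 6 fell (25.0%), beside 24.8% and 25.3% of all genes. For the mean lenvatinib effect 17 of the 24 were positive and 7 negative, beside 49.5% of all genes positive. IGFBP1, a secreted binder of insulin-like growth factors, was the 1 called, at 2.51 ± 0.38 (SE, adjusted p = 0.0412), beside 0.0884% of all genes. IGFBP1 was at 5.47, 15.2 and 4.28 CPM in vehicle tumors 1 to 3, 0.283, 0.678 and 1.51 with H3B-6527, 20.5, 40.9 and 38.2 with lenvatinib and 5.63, 6.29 and 6.48 with the combination. Its call was lost in 10 of 18 alternatives (adjusted p up to 0.133).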

How the data were processed

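RNA from 12 Hep3B xenograft tumors, 3 mice in each of 4 groups, was sequenced. The authors deposited 1 table of estimated counts per gene symbol, and 40.2% of its values are not whole. STAR and kallisto, and the builds GRCh37 and GRCm38, are named without versions or roles per the submitters' processing notes. Strand use is not given in the sources used here. Estimated counts were rounded, genes were filtered with filterByExpr, and libraries were scaled by TMM. The quasi-likelihood test of edgeR 4.0.16 in R 4.3.3 was fitted to all 12 libraries, with Benjamini-Hochberg adjustment over 15836 genes and a threshold of 0.05. Standard errors are the log2 fold change divided by the root of F. Alternatives used DESeq2 1.42.0, limma-voom (limma 3.58.1), other scaling, no filter, only the groups compared, and each tumor left out. The fit was tested on simulated data. Replicates were numbered in accession order. The genes, lists and roles were chosen with earlier results of these data known. Named were all 36 genes, with tumor values for those called, and from each list HIF1A, EPAS1, HK2, SLC2A1, VEGFA and those with the smallest p. Macrophage markers, checked with the other cell types, summed to 149 to 214 CPM. Most of that sum was CD68 and LYZ, which went opposite ways. CD68 averaged 93 CPM in vehicle and 156 with H3B-6527, and LYZ 107 and 9.5. Of the 10 markers, 4 were under 1 CPM in every tumor. No human reference sequence was used, so no promoter motif was searched.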

Additional observations from a re-analysis of the deposited data

How the results depend on the processing

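No member value called in the edgeR fit of all 12 tumors changed sign under any alternative. Of the 252 log2 values of the 36 genes in 7 comparisons, 55 changed sign under at least 1, none of them called in that fit, among them CA9 in the combination against vehicle (0.21, from -0.24 to 1.63), EGLN3 there (-0.10, from -0.45 to 0.66) and STC2 in lenvatinib against vehicle (0.30, from -0.43 to 0.75). No paired analysis was made, because mice were randomized to separate groups and the labels give no pairing of animals. In lenvatinib against vehicle, where edgeR called nothing, the genes of the 36 called higher numbered 1 without the low-count filter, 5 by DESeq2, 1 with only the groups compared, 0 to 3 with 1 tumor left out, and 2 without vehicle tumor 2 and lenvatinib tumor 3. Over all genes, 28, 128 and 101 were higher under the first 3 of these settings, 3 by limma-voom, 0 to 13 with 1 tumor left out and 7 with both left out, and 13, 117, 88 and 5 were lower without the filter, by DESeq2, with only the groups compared and by limma-voom. For the mean lenvatinib effect, the 36 gave 3 without the filter, 16 by DESeq2, 1 by limma-voom, 0 to 9 with 1 tumor left out and 9 with both left out. All genes gave 68, 309 and 26 higher under the first 3, 0 to 233 with 1 tumor left out and 42 with both left out, and 11 lower without the filter, 1 on library totals, 158 by DESeq2 and 0 to 140 with 1 tumor left out. In the combination against H3B-6527, DESeq2 called 3 of the 36 higher, and all genes gave 13 higher without the filter, 81 by DESeq2, 1 with only the groups compared and 0 to 16 with 1 tumor left out, with 17 lower by DESeq2. In the combination against lenvatinib, 3 of the 36 were higher without the filter, beside 9.68% of all genes. On library totals 3 were higher and 12 lower, beside 14.5% and 27.5% of all genes. With 1 tumor left out 1 to 5 were higher, beside 13.8 to 17.4%. With only the groups compared 12 were lower, beside 23.2%. For non-additivity DESeq2 called 13 genes higher and 5 lower. Counts of the 36 with 1 tumor left out were 9 to 11 higher and 7 to 11 lower for H3B-6527 against vehicle. Beside them stood 20.1 to 26% of all genes higher and 19.3 to 26.2% lower. For the combination against vehicle they were 9 to 15 and 4 to 5, beside 20.2 to 22.9% and 20.4 to 23.4% of all genes. The cause of these shifts was not tested. Depth limits STC2, LOX and ANKRD37 most, at estimated counts down to 2, 4 and 6 in a library.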
